A study of Mus musculus with 6 samples.

Results

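The clustered histone genes are the replication-dependent histone genes that carry the symbols Hist1h, Hist2h, Hist3h and Hist4h in the deposited gene table. Every row with such a symbol was taken, which gave 33 genes of the 14366 listed. They comprised 5 genes for the linker histone H1, 2 for H2A, 10 for H2B, 9 for H3 and 7 for H4. By symbol, 29 belonged to the Hist1 cluster, 1 to Hist2, 2 to Hist3 and 1 to Hist4. The GENCODE M21 annotation of mouse build GRCm38 holds 70 genes with a Hist symbol, and the other 37 were not analysed here. Whole mesonephroi of male embryos, taken at embryonic day 16.5, gave the libraries, and this is the organ that holds the Wolffian duct and, here, the mesonephric tubules. The study asked what the transcription factor GATA2 does in the mesenchyme around the duct. There were 3 control libraries of the genotype Osr2Cre+;Gata2-flox/+ and 3 libraries labelled Gata2cKO, of the genotype Osr2Cre+;Gata2-flox/flox. Thus every library carried the Osr2-Cre driver, which is active in mesenchyme, and at least 1 floxed Gata2 allele, and no library without Cre was used. The labels do not say whether the samples came from separate embryos or litters, so that p-values measure only the spread between these samples, which may be technical.

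A nucleosome wraps DNA around an octamer of H2A, H2B, H3 and H4, and H1 binds the linker DNA where it enters and leaves. Dividing cells make these proteins during S phase from clustered genes without introns, whose mRNAs normally end in a stem-loop bound by the stem-loop binding protein SLBP and not in a poly(A) tail. Some of these genes also yield polyadenylated mRNA, known above all from cells that have left the cell cycle. Since the mRNA was purified here on poly-T beads, the values count histone transcripts that reached the library through that step, and stem-loop ends without a tail are captured poorly by it.

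The stem-loop was searched as GGNNCTTNTNAGNGCC on the transcribed strand of the longest coding GENCODE M21 model of each gene. A stem-loop beyond the annotated end of a short model would not be seen. It was present in the models of 23 of the 33 genes, against 36 of 14278 listed genes with a coding model (0.252%). The sequences below are shown because they belong to the genes whose values stand out in the results, 5 that fell and 3 that are abundant and did not change detectably. Each is the DNA of the transcribed strand, 5′ to 3′, with the 16 bases of the stem-loop in capitals and 4 bases of each flank.
Hist1h1d (chr13:23555783-23555806, + strand): aaacGGCTCTTTTCAGAGCCaccc
Hist1h2bj (chr13:22043634-22043657, + strand): caaaGGCTCTTTTCAGAGCCacgc
Hist3h2a (chr11:58955168-58955191, + strand): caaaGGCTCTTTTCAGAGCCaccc
Hist1h3g (chr13:23535885-23535908, + strand): taaaGGCTCTTCTTAGAGCCaccc
Hist1h4d (chr13:23581946-23581969, + strand): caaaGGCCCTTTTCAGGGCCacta
Hist1h1c (chr13:23739508-23739531, + strand): aaaaGGCTCTTTTCAGAGCCacca
Hist3h2ba (chr11:58949345-58949368, + strand): caaaGGCTCTTTTCAGAGCCacct
Hist1h4i (chr13:22040962-22040985, - strand): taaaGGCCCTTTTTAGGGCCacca
The core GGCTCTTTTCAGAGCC was the most common, in 12 genes. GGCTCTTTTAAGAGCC followed in 5 and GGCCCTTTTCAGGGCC in 4. The cores of Hist1h3g and Hist1h4i were found in no other member. Genes that fell and genes that did not share the commonest core, so the stem-loop letters did not sort the members by their change. The models differ more in what follows the stem-loop: 23 bases in Hist1h2bj and 47 in Hist1h3g, but 840 in Hist1h1c, 169 in Hist3h2ba and 330 in Hist1h4i. Long stretches after the stem-loop also occur among the genes that fell, with 770 bases in Hist1h4d, 1643 in Hist3h2a and, the longest of all members, 4884 in Hist1h1d.

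Values are in TPM, the share of a gene among all transcripts after division by length. This unit keeps no read depth, which is therefore unknown. Gata2 itself was listed at 384, 464 and 546 TPM in the controls and at 431, 530 and 416 TPM in the Gata2cKO libraries (limma adjusted p = 0.968). The labels do not name the floxed exons, so this level over the whole gene does not check them. Control replicate 1 stood apart from the other libraries. Its mitochondrially encoded transcripts made up 21.9% of all TPM, against 14.2 and 16.3% in the other controls and 13.2 to 15.2% in Gata2cKO. The 12 listed erythroid markers, of 19 looked for, summed to 18322 TPM in it, 6905 and 7854 TPM in the other controls and 10563 to 13868 TPM in Gata2cKO. No listed erythroid marker was at 0, and Hba-a1, an alpha-globin gene and the most abundant of them, reached 9804 TPM in control replicate 1. The part that these shares had in the histone values was not tested. Results are therefore given with and without this library.

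Together the 33 histone genes held 0.278, 0.146 and 0.144% of all TPM in the controls, and 0.113, 0.114 and 0.140% in Gata2cKO, each in the order of replicates 1 to 3, as in all lists of values that follow. Their summed level was 2768, 1459 and 1439 TPM in the controls and 1129, 1134 and 1394 TPM in Gata2cKO. The groups did not overlap, yet Gata2cKO replicate 3 lay close to control replicates 2 and 3, and nearly all of the spread among controls came from replicate 1. The ratio of control to Gata2cKO means was 1.55 with all libraries and 1.19 without control replicate 1. Because whole organs were sampled, fewer cells of a type and less RNA per cell cannot be told apart.

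Of the 33 genes, 32 passed the filter of 1 TPM in at least 3 libraries. Hist1h2be, an H2B gene at 0.350 to 0.680 TPM, did not. Each gene was compared with limma on log2(TPM + 1), with Benjamini-Hochberg adjustment over all 12300 tested genes and a threshold of 0.05. Fold changes on this scale understate those of low genes. In Gata2cKO, 6 of the 32 genes fell (18.8%, against 1.74% of all tested genes). These were Hist1h1d, Hist3h2a, Hist1h2bj, Hist1h2bl, Hist1h3g and Hist1h4d, so that each histone class had at least 1 member that fell. A single gene, Hist2h2be, rose (3.12% of members, against 5.73% of all tested genes). Without control replicate 1, 7 of 32 fell (21.9%, against 3.5% of all tested genes) and 1 rose (against 9.01%). Of those 7, 5 had also fallen with all libraries, Hist3h2a no longer did, and Hist1h1b and Hist1h3c were added. The count of 6 depended on single libraries. It was 6 when control replicate 2 was left out and 2 for control replicate 3, and for Gata2cKO replicates 1, 2 and 3 it was 1, 1 and 2. Over all tested genes 919 passed in either direction with all libraries, and 116 to 274 in these fits.

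Counted without a test, all 3 Gata2cKO libraries lay below all 3 controls for 13 of the 32 genes (40.6%, against 10.5% of all tested genes), and all 3 lay above for 1 (against 23.4%). The fitted log2 fold change was negative for 27 of the 32 genes with all libraries and for 24 without control replicate 1. Its median was -0.85 over the members and 0.05 over all tested genes. Without control replicate 1 these medians were -0.45 and 0.05. In the authors' deposited table, 10 of the 33 genes were lower at an adjusted p under 0.05 (30.3%, against 6.58% of all listed genes) and 1 was higher (against 6.69%). Of the genes that fell by limma, 5 were among those 10, and Hist3h2a had an adjusted p of 0.215 in the authors' deposited table.

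**Figure D1:**
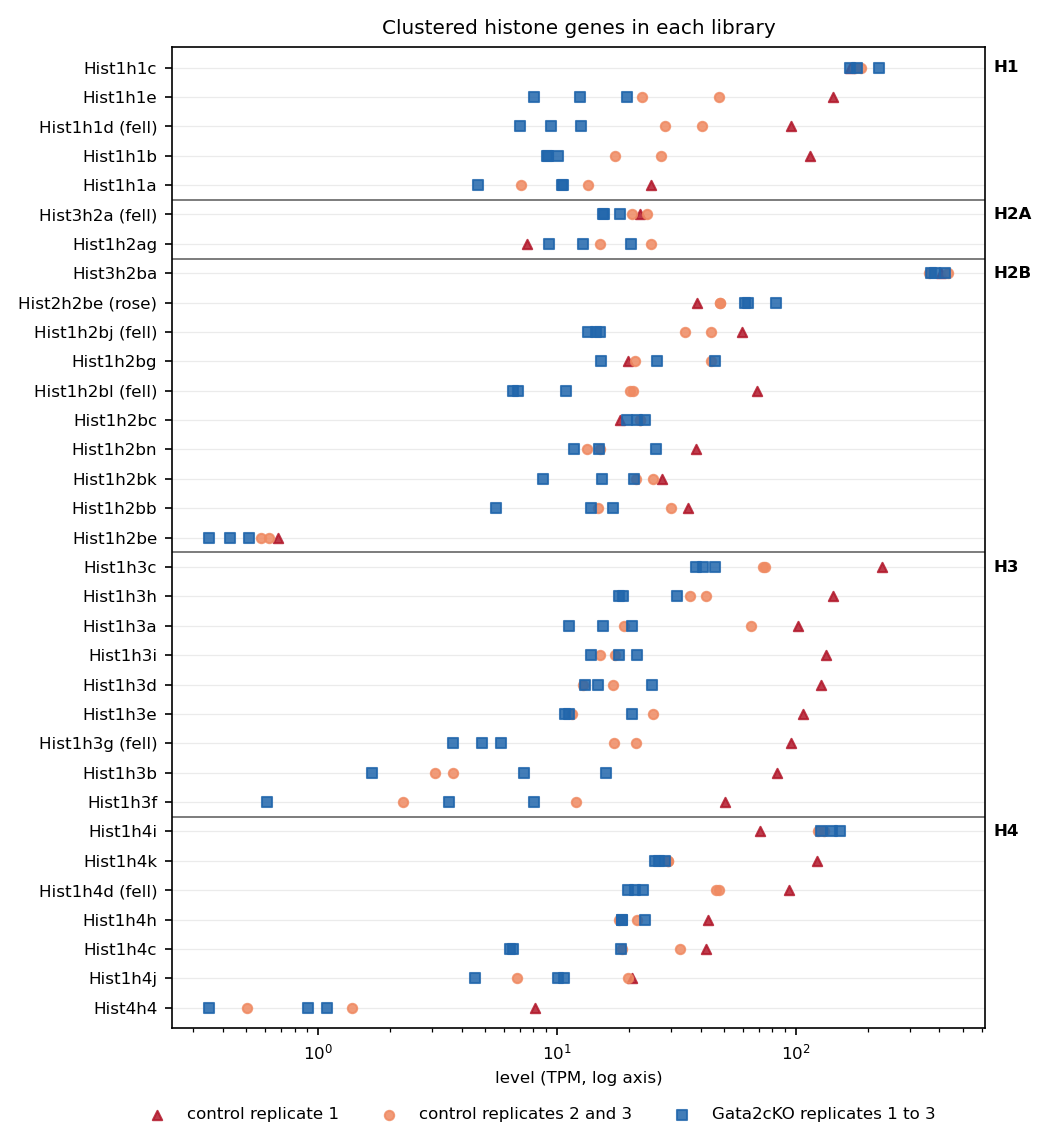
Level of each of the 33 histone genes in TPM on a log axis, by histone class, with control replicate 1 as triangles, control replicates 2 and 3 as circles and the 3 Gata2cKO libraries as squares. Control replicate 1 is the highest library for all 9 H3 genes, while the abundant Hist3h2ba, Hist1h1c and Hist1h4i show little spread or have control replicate 1 at the low end.

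Among the linker histones, Hist1h1d fell while Hist1h1c, by far the most abundant H1 gene in Gata2cKO, stayed at a like level in both groups. Hist1h1d (chr13:23553262-23560686, + strand) was at 95.7, 28.3 and 40.8 TPM in the controls and at 7.001, 9.44 and 12.7 TPM in Gata2cKO. The groups did not overlap, and even the lowest control lay well above the highest Gata2cKO library. From 54.9 ± 35.9 TPM it went to 9.70 ± 2.85 TPM (SD, n = 3 per group), a log2 fold change of -2.23 ± 0.41 (SE) at a limma adjusted p of 0.0235. The change was -1.74 when control replicate 1 was left out (limma adjusted p = 0.007). The call was lost when any of 4 other libraries was left out, with a limma adjusted p of up to 0.0903.

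Hist1h1c (chr13:23738808-23740367, + strand) was at 169.6, 187 and 178 TPM in the controls and at 180.3, 168 and 224 TPM in Gata2cKO. Its groups overlapped, and the log2 fold change of 0.09 ± 0.12 (SE) did not pass (limma adjusted p = 0.659). Hist1h1e and Hist1h1b, like Hist1h1d, had no overlap between the groups, but did not pass the test with all libraries. Hist1h1e was at 143, 22.8 and 47.6 TPM in the controls and at 12.5, 8.05 and 19.6 TPM in Gata2cKO, without overlap. The fit gave it a log2 fold change of -2.01 ± 0.60 (SE) at a limma adjusted p of 0.0825, and -1.32 without control replicate 1 (limma adjusted p = 0.0605). Hist1h1b, named here after its values were seen, was at 114, 17.6 and 27.2 TPM in the controls and at 9.11, 10.1 and 9.17 TPM in Gata2cKO. It passed the test when control replicate 1 was left out (log2 fold change -1.13, limma adjusted p = 0.00932) and did not with all libraries (-1.91, limma adjusted p = 0.0851). The fifth linker gene, Hist1h1a, had overlapping groups, with 7.09 to 24.9 TPM in the controls and 4.69 to 10.6 TPM in Gata2cKO. In sum the class was at 547, 263 and 307 TPM in the controls and at 219, 201 and 276 TPM in Gata2cKO, and Hist1h1c made up most of the Gata2cKO sums. Gata2cKO replicate 3 lay above control replicate 2 in this sum.

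The RefSeq promoters of 4 H1 genes are shown because they hold the H1 box, a motif known from this class. Promoters, from 250 bases before the RefSeq start to 50 after it, were matched for 29 of the 33 genes by gene ID, and Hist1h2bc, Hist2h2be, Hist1h3a and Hist1h3f were not matched. The stretches below are from build GRCm38.p6 and read 5′ to 3′ in the direction of the gene. Capitals mark AAACACA, the H1 box, and CCAAT and TATAAA, each on either strand, and no matches of different motifs overlapped.
Hist1h1d (chr13:23554902-23555016, + strand): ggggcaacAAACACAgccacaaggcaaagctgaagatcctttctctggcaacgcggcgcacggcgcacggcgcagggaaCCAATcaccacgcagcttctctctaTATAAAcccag
Hist1h1e (chr13:23622574-23622683, - strand): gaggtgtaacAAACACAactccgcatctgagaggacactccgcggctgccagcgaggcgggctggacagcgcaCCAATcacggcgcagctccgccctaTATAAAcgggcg
Hist1h1b (chr13:21780641-21780750, - strand): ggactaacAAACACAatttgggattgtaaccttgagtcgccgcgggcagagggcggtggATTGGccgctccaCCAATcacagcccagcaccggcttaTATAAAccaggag
Hist1h1c (chr13:23738682-23738791, + strand): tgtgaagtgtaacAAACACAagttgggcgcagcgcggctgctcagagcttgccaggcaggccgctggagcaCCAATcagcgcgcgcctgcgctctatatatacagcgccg
The H1 box and CCAAT are in all 4 stretches. The first 3 also hold TATAAA. The stretch of Hist1h1c has no exact TATAAA but reads tatatata near the same place, and only the exact letters were searched. The promoter of Hist1h1a, not shown, holds no H1 box but does hold the other motifs in capitals here. AAACACA occurred in 4 of the 29 matched promoters, all of them of H1 genes, and in 7.18% of the 32851 promoters in the table. CCAAT occurred in 24 of the 29 and in 37.4% of all promoters, and TATAAA in 17 of the 29 and in 13.6% of all promoters. These matches describe the letters in the window.

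The H2A class had the fewest rows. Hist3h2a (chr11:58954685-58956830, + strand) was at 22.3, 23.9 and 20.6 TPM in the controls and at 15.8, 18.5 and 15.6 TPM in Gata2cKO. The groups did not overlap and the spread within each was small, at 22.3 ± 1.61 TPM for controls and 16.6 ± 1.60 TPM for Gata2cKO (SD, n = 3 per group). The decrease of Hist3h2a, a log2 fold change of -0.40 ± 0.10 (SE), was the smallest among the genes called (limma adjusted p = 0.0487). The call was lost when any library was left out, with limma adjusted p-values up to 0.176. Hist3h2a also shares its place with Trim17 on the same strand and Gm44313 on the other, so that reads of these genes may not be told apart. Hist1h2ag was at 7.49, 15.2 and 24.8 TPM in the controls and at 12.9, 9.31 and 20.5 TPM in Gata2cKO. Control replicate 1 was here the lowest of the 6 libraries, and the groups overlapped (log2 fold change -0.07, limma adjusted p = 0.930). Unlike in the H1 class, control replicate 1 was the lowest control in the class sum, at 29.8 TPM against 39.1 and 45.5 TPM in the other controls and 27.8 to 36.1 TPM in Gata2cKO.

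Hist1h2bj, an H2B gene (chr13:22043214-22043676, + strand), had the smallest adjusted p of all the histone genes. It was at 59.6, 44.2 and 34.3 TPM in the controls and at 14.6, 15.2 and 13.6 TPM in Gata2cKO. Every control was above every Gata2cKO library, and the Gata2cKO values lay close together. Control libraries averaged 46.1 ± 12.8 TPM and Gata2cKO libraries 14.5 ± 0.808 TPM (SD, n = 3 per group), a ratio of 3.19 and a log2 fold change of -1.57 ± 0.18 (SE) at a limma adjusted p of 0.00847. The call was kept when each library was left out in turn, with limma adjusted p-values of 0.00169 to 0.0435, and it alone among the genes that fell was so. The ratio was 2.72 when control replicate 1 was left out. Its RefSeq start, at 22043198 and not the GENCODE start given above, lies 249 bases from the RefSeq start of Hist1h2ag, which is transcribed the other way. The stretch between the starts is printed because it is the upstream sequence that Hist1h2bj shares with this neighbour. The difference in change between the neighbours was not tested. The stretch is given in the direction of Hist1h2bj, with CCAAT on either strand in capitals.
Hist1h2bj (chr13:22042950-22043198, + strand): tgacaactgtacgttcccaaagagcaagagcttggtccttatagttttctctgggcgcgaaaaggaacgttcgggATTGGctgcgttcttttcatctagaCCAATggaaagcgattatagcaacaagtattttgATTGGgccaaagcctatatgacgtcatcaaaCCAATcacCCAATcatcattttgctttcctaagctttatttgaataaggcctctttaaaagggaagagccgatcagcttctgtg
The stretch holds 5 matches to CCAAT, and no ATTTGCAT, the octamer known from H2B promoters. ATTTGCAT occurred in the promoters of 4 of 8 matched H2B genes and 1 of 2 H2A genes, and in 1.74% of all promoters.

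Hist1h2bl (chr13:21715763-21716143, - strand) was at 68.7, 20.9 and 20.2 TPM in the controls and at 10.9, 6.58 and 6.87 TPM in Gata2cKO. Its groups did not overlap, but control replicate 1 was 3.34 times the mean of the other controls. The log2 fold change of Hist1h2bl was -1.84 ± 0.44 (SE) at a limma adjusted p of 0.0477, and -1.27 without control replicate 1 (limma adjusted p = 0.00975). The call was lost when any library other than control replicate 1 was left out. Hist2h2be (chr3:96221119-96223738, + strand) moved the other way, at 38.8, 48.4 and 48.3 TPM in the controls and 61.4, 63.4 and 82.6 TPM in Gata2cKO. Control replicate 1 was its lowest library, and the groups did not overlap. From 45.2 ± 5.51 TPM it rose to 69.1 ± 11.7 TPM (SD, n = 3 per group), a log2 fold change of 0.60 ± 0.14 (SE) at a limma adjusted p of 0.0446. The limma adjusted p was 0.0472 without control replicate 1, but the call was lost when any of the other 5 libraries was left out and with median-of-ratios scaling (0.0712).

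The most abundant of all the histone genes was Hist3h2ba (chr11:58948920-58949533, + strand), at 407, 436 and 362 TPM in the controls and at 382, 368 and 421 TPM in Gata2cKO. Its groups overlapped, with a log2 fold change of -0.04 ± 0.10 (SE, limma adjusted p = 0.829). As Hist3h2ba dominates it, the H2B sum was close between libraries, at 714, 682 and 565 TPM in the controls and 547, 538 and 649.8 TPM in Gata2cKO. Of the 9 tested H2B genes, 2 fell (22.2%, against 1.74% of all tested genes), 1 rose (11.1%, against 5.73%) and 6 passed in neither direction. Among the 6, the adjusted p was 0.124 or more. Hist1h2bg, named after its values were seen, varied from 19.8 to 44.1 TPM within the controls and from 15.3 to 46.1 TPM within Gata2cKO, and its groups overlapped.

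The H3 class showed the widest spread of any class, and it lay mostly in control replicate 1. The 9 genes summed to 1074, 207 and 263 TPM in the controls and to 120.2, 141 and 182 TPM in Gata2cKO. Groups did not overlap in this sum, and control replicate 1 was 4.58 times the mean of the other controls. The ratio of control to Gata2cKO means was 3.48 with all libraries and 1.59 without control replicate 1. Of the 9 genes, 1 fell with all libraries (11.1%, against 1.74% of all tested genes). Without control replicate 1, 2 fell (22.2%, against 3.5%). Hist1h3g (chr13:23535422-23535951, + strand) was at 95.3, 17.3 and 21.4 TPM in the controls and at 4.88, 5.87 and 3.68 TPM in Gata2cKO. No Gata2cKO library came near the lowest control, and the ratio of means was 9.29, or 4.03 without control replicate 1. Hist1h3g had a log2 fold change of -2.57 ± 0.56 (SE) at a limma adjusted p of 0.0373, and -1.82 without control replicate 1 (limma adjusted p = 0.00220). The call was lost when any of 4 other libraries was left out, with a limma adjusted p of up to 0.126.

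Hist1h3c, the most abundant H3 gene, was at 230.3, 74.4 and 72.9 TPM in the controls and at 38.3, 41.0 and 46.1 TPM in Gata2cKO. The groups did not overlap with or without control replicate 1. It passed the test without that library (log2 fold change -0.81, limma adjusted p = 0.00445) and not with it (-1.35 ± 0.40 SE, limma adjusted p = 0.0818). Hist1h3h likewise had no overlap between the groups, at 143.2, 36.0 and 42.2 TPM in the controls and 19.0, 18.3 and 31.9 TPM in Gata2cKO, and passed neither fit (limma adjusted p = 0.118, and 0.0599 without control replicate 1). Hist1h3a had control values of 102, 19.2 and 64.9 TPM that reached down into the Gata2cKO range of 11.3 to 20.6 TPM. Hist1h3b was the extreme case, at 83.2 TPM in control replicate 1 and 3.67 and 3.11 TPM in the other controls, against 1.68, 7.28 and 16.1 TPM in Gata2cKO. Its log2 fold change was -0.70 with all libraries and 0.72 without control replicate 1, and neither passed the test (limma adjusted p = 0.739 and 0.473). Every H3 gene was at least 2.43-fold higher in control replicate 1 than in the mean of the other controls, and Hist1h3b was 24.6-fold higher.

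**Figure D2:**
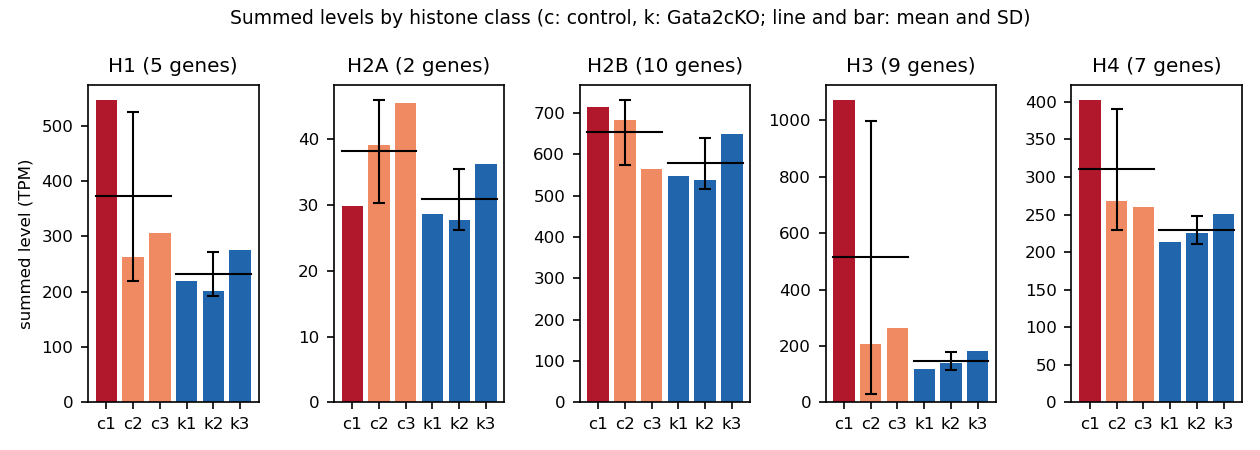
Summed level in TPM for each histone class in every library, as bars from 0, with a horizontal line at each group mean and an error bar of 1 SD (n = 3). Control replicate 1 reaches 1074 TPM for H3 and 547 TPM for H1, while the H2B bars lie between 538 and 714 TPM.

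All H4 genes encode the same protein sequence in mouse, as textbooks give it, but their transcripts had different patterns. Hist1h4d (chr13:23581598-23582735, + strand) was at 94.3, 46.3 and 47.8 TPM in the controls and at 19.9, 23.0 and 21.3 TPM in Gata2cKO. No Gata2cKO library came near any control, and the ratio of means was 2.94. Hist1h4d had a log2 fold change of -1.43 ± 0.25 (SE) at a limma adjusted p of 0.0208, and -1.10 without control replicate 1 (limma adjusted p = 0.00158). The call was lost when any Gata2cKO library was left out, with a limma adjusted p of up to 0.0846. Hist1h4i, the most abundant H4 gene (chr13:22040636-22041362, - strand), was at 71.0, 131 and 124 TPM in the controls and at 128, 142 and 153 TPM in Gata2cKO. Control replicate 1 was its lowest library, the groups overlapped, and the log2 fold change of 0.42 ± 0.22 did not pass the test (SE, limma adjusted p = 0.262).

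Hist1h4k was nearly even apart from control replicate 1, at 123, 29.2 and 29.3 TPM in the controls and 28.4, 25.7 and 26.9 TPM in Gata2cKO. Its groups did not overlap, yet its log2 fold change of -0.79 (limma adjusted p = 0.343) shrank to -0.11 without that library. Hist1h4c was at 42.3, 18.7 and 32.9 TPM in the controls and at 6.59, 6.35 and 18.6 TPM in Gata2cKO (log2 fold change -1.58 ± 0.42 SE, limma adjusted p = 0.0630). Here Gata2cKO replicate 3 nearly met the lowest control. In sum the 7 genes were at 403, 268 and 259.5 TPM in the controls and at 213, 225 and 250.3 TPM in Gata2cKO. The ratio of means was 1.35, or 1.15 without control replicate 1. Of the 7 genes, 1 fell (14.3%, against 1.74% of all tested genes) and 6 passed in neither direction.

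**Figure D3:**
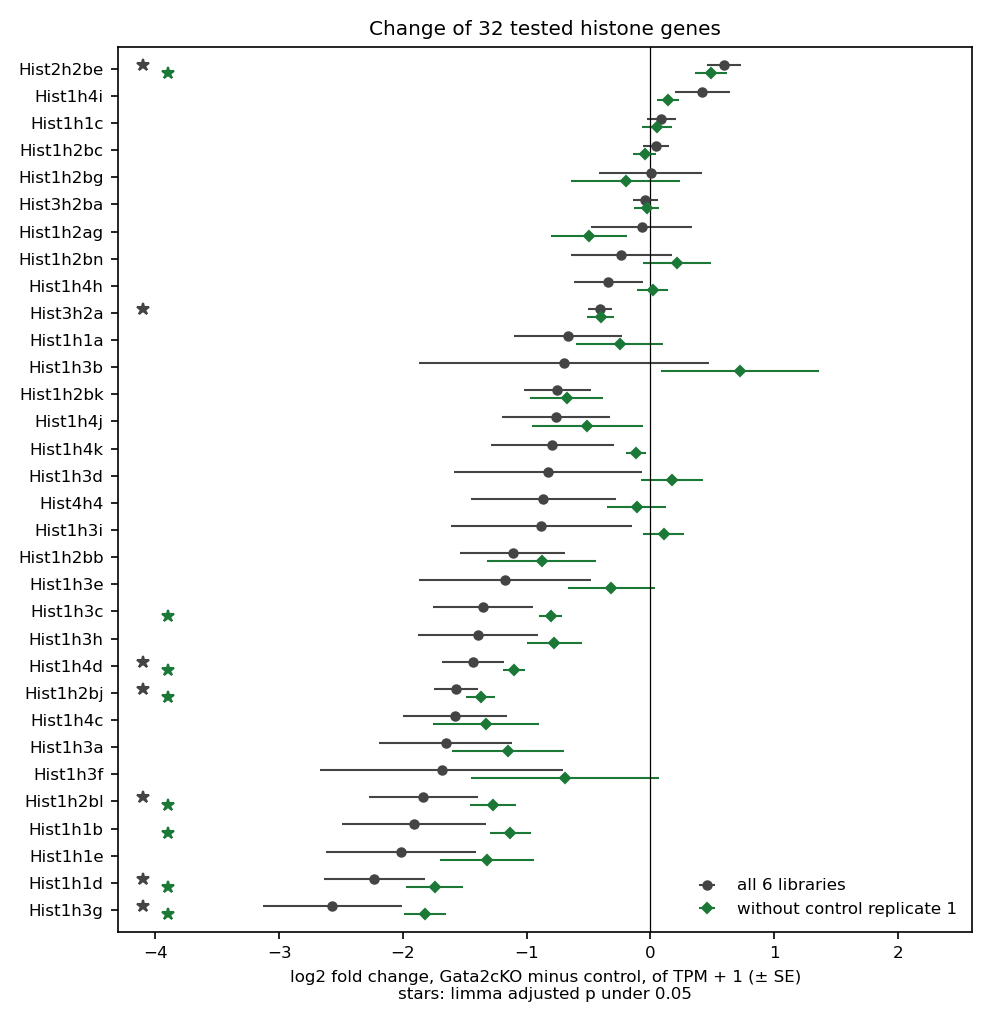
Log2 fold change of TPM + 1, Gata2cKO minus control, with its SE for the 32 tested histone genes, with all 6 libraries (grey circles) and without control replicate 1 (green diamonds), and with stars where the limma adjusted p was under 0.05. Most diamonds lie closer to 0 with shorter error bars, and Hist1h2bj, Hist1h4d, Hist1h2bl, Hist1h1d and Hist1h3g, which fell, and Hist2h2be, which rose, carry both stars.

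Leaving out control replicate 1 brought most changes closer to 0 and narrowed their errors. This library was the highest of the 6 for 25 of the 33 genes, including 4 of 5 H1 genes, none of the H2A genes, 6 of 10 H2B genes, 9 of 9 H3 genes and 6 of 7 H4 genes. It was at least 2-fold above the mean of the other controls for 19 of the 33 genes, and for 194 of all 12300 tested genes (1.58%). The median of this ratio was 2.42 over the histone genes and 0.993 over all tested genes. By class, the median log2 fold change with and without control replicate 1 was -1.91 and -1.13 for H1, -0.24 and -0.45 for H2A, -0.24 and -0.20 for H2B, -1.35 and -0.69 for H3, and -0.79 and -0.11 for H4. The sign of the fold change was negative in both fits for 22 of the 32 genes and differed between the fits for 7.

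The members also differ at the annotated end of their transcript. A poly(A) signal, AATAAA or ATTAAA, lay in the last 50 bases of the GENCODE M21 model for 9 of the 33 genes, against 79.4% of 14278 listed genes with a coding model. These 9 were Hist1h1c, Hist3h2a, Hist3h2ba, Hist2h2be, Hist1h2be, Hist1h4i, Hist1h4h, Hist1h4j and Hist4h4, and they include the 3 genes with a mean level above 100 TPM. This grouping was chosen after the values were seen and is given as a description, with no test. It rests on the longest coding M21 model of each gene, which may differ from the model behind the deposited TPM. Some models without the signal are short and hold no stem-loop either. They are 312 bases long for Hist1h4k, 381 for Hist1h2bl and Hist1h2bn, and 411 for Hist1h3h and Hist1h3i. A signal beyond the annotated end of such a model would not be seen. The 9 genes with the signal summed to 781, 871 and 759 TPM in the controls and to 798, 789 and 928 TPM in Gata2cKO. Hist3h2ba, Hist1h1c and Hist1h4i, with mean levels of 396, 185 and 125 TPM, dominate this sum. The 24 genes without the signal summed to 1987, 588.5 and 680.0 TPM in the controls and to 331, 344 and 467 TPM in Gata2cKO. With the signal the groups overlapped and control replicate 1 lay among the other libraries. Without it the groups did not overlap, control replicate 1 was the highest library, and this order of the groups held without it. The ratio of control to Gata2cKO means for the 24 genes was 2.85, or 1.67 without control replicate 1. Among the 8 tested genes with the signal, 1 fell and 1 rose (12.5% each), and the median log2 fold change was -0.19. Of the 24 without it 5 fell (20.8%) and none rose, with a median of -1.26. Over all tested genes 1.74% fell and 5.73% rose. When control replicate 1 was left out, 0 with the signal and 7 without it (29.2%) fell, against 3.5% of all tested genes. The medians were then -0.00 and -0.73. The median ratio of control replicate 1 to the other controls was 1.02 with the signal and 2.95 without it. Exceptions stood on both sides. Hist4h4 had the signal and was at 8.12 TPM in control replicate 1 and at most 1.39 TPM elsewhere. Hist1h4h also had it, and control replicate 1 was 2.15 times the mean of the other controls. Hist1h2ag lacked the signal and was lowest in control replicate 1. Hist1h2bg and Hist1h2bc lacked it too, and control replicate 1 was 0.606 and 0.826 times the mean of the other controls.

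**Figure D4:**
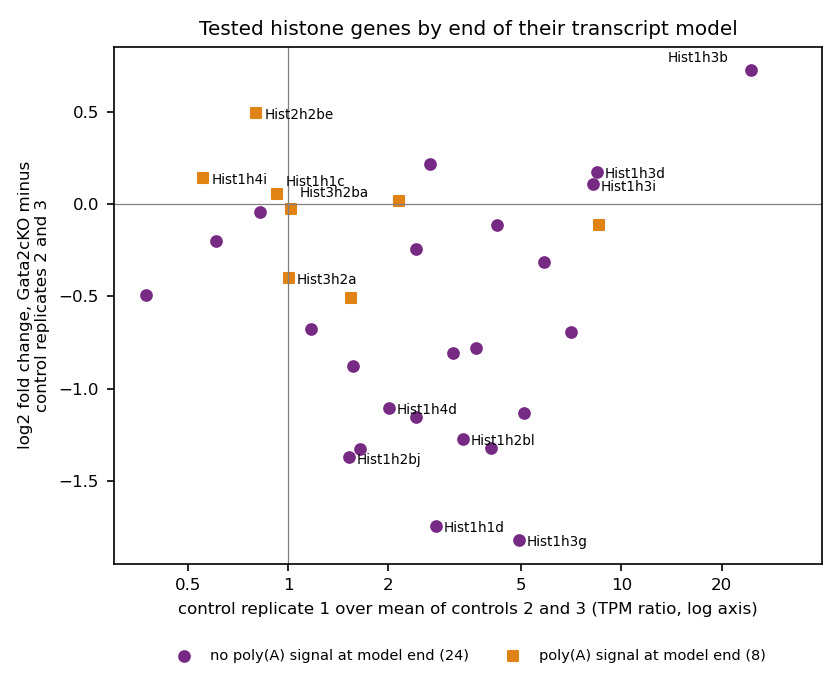
For the 32 tested histone genes, the ratio of control replicate 1 to the mean of control replicates 2 and 3 (log axis) against the log2 fold change of TPM + 1, Gata2cKO minus control replicates 2 and 3, with squares for the 8 genes that have a poly(A) signal at the model end and circles for the 24 that lack it. Both axes share control replicates 2 and 3, so no correlation is given; Hist1h3g and Hist1h1d lie lowest, and Hist1h3b lies far right at 24.6.

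The members' sequences also overlap with each other. Between 0 and 93.9% of the 50-base windows of a member's model were found in the transcript of another gene, with a median of 40.1%, and 3 members had no such window. For Hist1h3h the share was 93.9%, for Hist1h2bl 82.8%, for Hist1h2bj 59.4% and for Hist1h3g 54.1%. Levels of these genes are therefore uncertain to the extent that reads were split between copies. The share was lower in the other genes that fell, at 31.5% for Hist3h2a, 10.2% for Hist1h4d and 2.25% for Hist1h1d. Their models are longer, at 2146, 1138 and 7425 bases, against 381 for Hist1h2bl. A long model lowers the share even where its coding part is shared, so the shares do not rank how uncertain these levels are. In addition 4 members overlap another annotated gene, among them Hist1h1e and Hist1h2be, which overlap each other.

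Genes that act on histones or in the phase when histones are made had median log2 fold changes between -0.11 and 0.07, by list, with all libraries. Of 11 listed replacement and variant histone genes, which are transcribed outside S phase too and mostly give polyadenylated mRNA, none passed the test with all libraries and the median log2 fold change was -0.10. When control replicate 1 was left out the median was -0.23 and 1 gene fell (against 3.5% of all tested genes). It was H1fx, a variant linker histone named after its values were seen (log2 fold change -0.38, limma adjusted p = 0.0457). Cenpa, the centromeric H3 variant, had the smallest p of these, at 126, 124 and 126 TPM in the controls and 107, 104 and 88.6 TPM in Gata2cKO (limma adjusted p = 0.0686). Of 24 genes for histone mRNA synthesis and 3′ end processing none passed with all libraries, with a median of -0.01. In that list Srrt, which links the cap-binding complex to RNA processing, had the smallest p (169, 201 and 215 TPM against 145, 169 and 152 TPM, limma adjusted p = 0.115). It was the 1 gene of the list that fell without control replicate 1, against 3.5% of all tested genes (log2 fold change -0.42, limma adjusted p = 0.0262). Slbp, named after its values were seen, was at 59.3, 52.9 and 52.1 TPM in the controls and at 47.3, 49.1 and 44.8 TPM in Gata2cKO. These Slbp groups did not overlap, and the log2 fold change of -0.21 did not pass the test (limma adjusted p = 0.155). Of 28 histone chaperone and deposition genes 2 rose, a share near the 5.73% of all tested genes, and none fell, with a median of -0.11. Without control replicate 1, 3 rose (against 9.01% of all tested genes), these 2 and Supt16, a subunit of the FACT chaperone named after its values were seen (limma adjusted p = 0.0178). Rbbp7, a histone-binding subunit of several chromatin complexes, was at 152, 160.3 and 155 TPM in the controls and 192, 185 and 199 TPM in Gata2cKO (log2 fold change 0.30, limma adjusted p = 0.0495). Ubn1, a subunit of the HIRA complex that deposits variant H3, was at 19.98, 21.1 and 20.8 TPM in the controls and 26.6, 29.4 and 25.9 TPM in Gata2cKO (log2 fold change 0.39, limma adjusted p = 0.0333). Neither had overlapping groups, and each call was lost when any of 5 libraries was left out.

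Of 37 S phase and DNA replication genes, none passed the test with all libraries, and the median log2 fold change was 0.07. Their summed level was 2535 to 2655 TPM in the controls and 2641 to 2787 TPM in Gata2cKO, so control replicate 1, the lowest at 2535 TPM, was not raised for this list as it was for the histone genes. Ccne2, a cyclin of the entry into S phase, had the smallest p, at 10.2, 9.40 and 6.09 TPM in the controls and 13.5, 12.4 and 12.99 TPM in Gata2cKO (limma adjusted p = 0.0788). When control replicate 1 was left out, 2 of the 37 genes rose (against 9.01% of all tested genes) and 1 fell (against 3.5%). Ccne2 rose (limma adjusted p = 0.0306), as did Mcm7, a subunit of the replicative helicase (0.0352), and E2f1, a transcription factor of S phase genes, fell (0.0369). The last 2 are named after their values were seen, and the median was then 0.06. Of 20 G2 and mitosis genes none passed, with a median of 0.01 and sums of 1290 to 1336 TPM in the controls and 1175 to 1306 TPM in Gata2cKO. Ube2c, an enzyme of the anaphase-promoting complex pathway, was at 118, 107 and 124 TPM against 88.2, 107 and 83.4 TPM (limma adjusted p = 0.113). Among 10 cell cycle exit genes none passed either, with a median of 0.08, and Btg1, an antiproliferative gene, had the smallest p (limma adjusted p = 0.0742). Without control replicate 1, 2 of these 10 fell (against 3.5% of all tested genes), Btg1 among them. A p that misses the threshold does not show that the levels were the same.

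**Figure D5:**
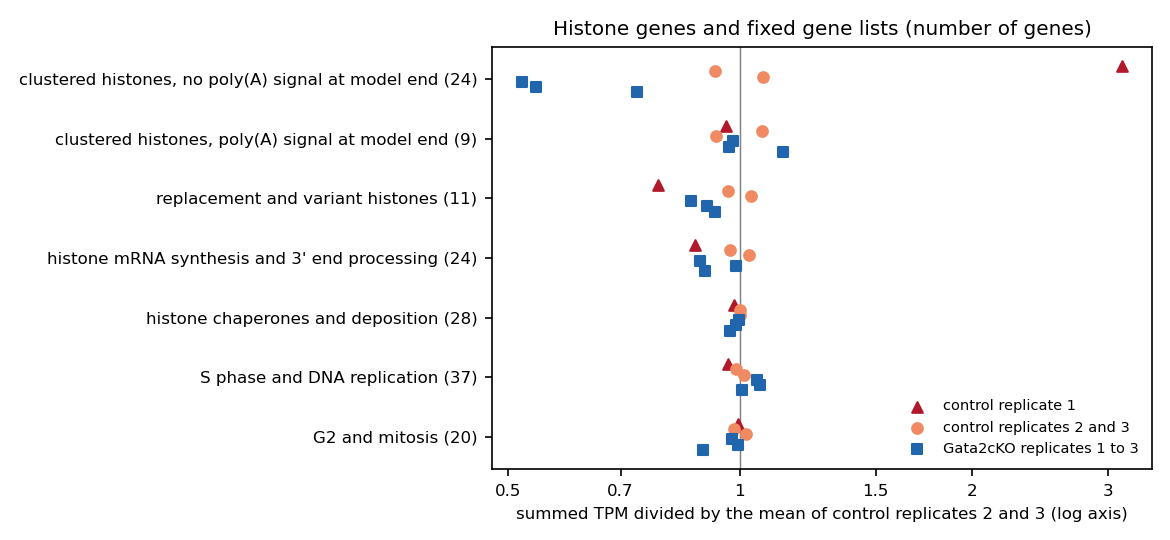
Summed TPM of the histone genes, divided by the end of their model, and of 5 gene lists, each divided by the mean of control replicates 2 and 3 and drawn on a log axis, with control replicate 1 as triangles, control replicates 2 and 3 as circles and Gata2cKO as squares. For the 24 histone genes without a poly(A) signal at the model end control replicate 1 is at 3.13 and Gata2cKO at 0.521 to 0.736, while the lists of other genes lie between 0.784 and 1.06.

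Some markers of cell types also passed the test, and their part in the histone values was not tested. Over all tested genes 5.73% rose and 1.74% fell with all libraries, and 9.01% rose without control replicate 1. All 14 markers of Wolffian duct epithelium were listed, with sums of 1024 to 1111 TPM in the controls and 1324 to 1339 TPM in Gata2cKO, and 3 of 12 tested rose. Of 16 mesonephric mesenchyme markers 4 fell, with sums that overlapped (7846 to 10021 against 8385 to 10745 TPM). Of 12 listed immune cell markers, 6 of the 10 tested rose, with sums of 357 to 359 TPM in the controls and 586 to 686 TPM in Gata2cKO. Of 9 endothelial markers 3 rose, with sums of 249 to 302 TPM against 342 to 372 TPM. Germ cell markers were near the limit of the table, with sums of 1.33 to 2.15 TPM over all libraries for the 5 listed of 11, none of them tested. The 8 listed Sertoli and Leydig markers summed to 54.4 to 68.5 TPM in the controls and 46.7 to 58.0 TPM in Gata2cKO, and 0 of 5 tested passed. The 5 listed skeletal muscle and neural markers summed to 5.596 to 5.79 TPM and 7.63 to 11.4 TPM, and 0 of 3 tested passed. Without control replicate 1, 7 of the 12 duct epithelium markers, 6 of the 10 immune and 4 of the 9 endothelial markers rose. In that fit 1 of the 3 muscle and neural markers also rose. Of the 16 mesenchyme markers, 4 fell without control replicate 1, against 3.5% of all tested genes. Of the 11 tested erythroid markers, 1 rose with all libraries and 5 without control replicate 1. No listed marker of any of these lists was at 0 in every library.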

How the data were processed

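Whole-transcriptome RNA of 3 control and 3 Gata2cKO mesonephroi was made into libraries after poly-T bead purification, per the labels. STAR 2.7.11a, DESeq2 and build GRCm38 are named in the submitters' processing notes. The authors deposited 1 table of TPM per gene and library; that the unit is TPM was read from the values, which sum to 997351 to 998844 per library. The authors also deposited, per gene, a log2 fold change and raw and adjusted p-values of their own, which served only for comparison. Read counts were not used here.

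From the TPM, limma 3.58.1 in R 4.3.3 was fitted with a trended prior on log2(TPM + 1), with group as the only term, for genes at 1 TPM or more in at least 3 of 6 libraries. It was also run on simulated data in which each gene had the same spread in all 6 libraries. Such data hold no library that stands apart, as control replicate 1 did here. Sums over genes have no test. Transcript models came from GENCODE M21, promoters from RefSeq (GRCm38.p6). The deposited TPM may rest on another annotation release. Model ends, lengths and shared windows given here may therefore differ from those of the models that were quantified. Genes named are the 3 most abundant and the extreme fold changes of each class, and those past the threshold. Of each list other than the cell type lists, up to 4 past it or the smallest p are named. Of the cell type lists only the most abundant erythroid marker is named, and the others are given by counts and sums. The histone genes and all lists were chosen with earlier results of these data known.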

Additional observations from a re-analysis of the deposited data

How the results depend on the processing

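The 6 decreased histone genes remained 6 in number with pseudocounts of 0.1 and 0.5, a stricter filter, and median-of-ratios or upper-quartile scaling, and were 5 without mitochondrial genes or without limma's trend. Without a filter on low values 3 fell and 0 rose. With weights per library, from 0.209 for control replicate 1 to 7.596 for control replicate 2, 13 fell and 1 rose. Many more genes of every kind passed in that fit, 4751 of all 12300 tested. The authors' deposited table had 10 lower. Leaving out each library gave 1 to 7 lower and 0 to 1 higher. None was higher (0) with median-of-ratios scaling, or with it and without control replicate 1, an alternative added after seeing the data. Over all genes 919 passed, against 4751 with weights, 1906 in the authors' deposited table, 1845 with that added alternative and 116 to 1539 leaving out each library.

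Whether the replicate numbers pair the samples is not known. The correlations of deviations between same-numbered libraries were 0.245, -0.07 and 0.04 for replicates 1 to 3. With 3 libraries per group they cannot decide it. With the number as a block 9 fell, 1 rose and 774 genes passed in all.

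The log2 ratio of the H3 sum, -1.80, was -2.18 to -0.67 leaving out each library. Of the genes named by rule, 4 reversed sign, none of which passed in either direction. Leaving out each library gave -0.031 to 0.17 for Hist1h1c (-0.031 without Gata2cKO replicate 3) and -0.49 to 0.31 for Hist1h2ag (0.31 without control replicate 3, 0.18 without Gata2cKO replicate 2). It gave -1.45 to 0.72 for Hist1h3b (0.72 without control replicate 1, 0.019 without Gata2cKO replicate 1) and -0.11 to 0.022 for Hist3h2ba (0.022 without control replicate 2, 0.0014 without Gata2cKO replicate 2). With weights Hist1h3b was at 0.064. The added alternative gave -0.0090 for Hist1h1c and 0.67 for Hist1h3b. The cause was not tested. Read depth, unknown here, limits the precision of the low genes.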

Other observations

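The 29 Hist1 genes lie in 2 regions of chromosome 13 (GRCm38), and genes that fell were found in both. Over all tested genes 1.74% fell with all libraries and 3.5% without control replicate 1. Of the 11 between 21715763 and 22043676, 2 fell with all libraries and 3 without control replicate 1, with a median log2 fold change of -0.79. Of the 18 between 23531050 and 23764406, 17 were tested, 3 fell with all libraries and 4 without control replicate 1, with a median of -1.18. Within Gata2cKO, replicate 3 was the highest library for 20 of the 33 histone genes. The same count over all tested genes was not made, so this is not shown to be particular to the histone genes.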
